A study of Mus musculus with 4 samples.

Results

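The antigen presentation and immunoproteasome genes H2-K1, H2-D1, B2m, Tap1, Psmb8, Psmb9, H2-Aa, H2-Ab1, H2-Eb1 and Cd74 were followed in mouse liver through every probe set that the platform annotation assigned to one of these symbols alone. That gave 15 probe sets for the 10 genes among 12422 probe sets that were not controls, 11 for the 6 genes of the class I pathway and 4 for the 4 genes of class II. All 15 were bright enough to be tested. Liver RNA from B6SJL hybrid males was hybridised to 4 Affymetrix U74Av2 arrays, wild-type replicates 1 and 2 from non-transgenic mice (WT-1 and WT-2) and PEPCK-TAg replicates 1 and 2 from transgenic mice (TAg-1 and TAg-2). The transgene encodes both the large T and the small t antigen of SV40, driven by the promoter of Pck1, the gene of phosphoenolpyruvate carboxykinase, which is active in hepatocytes and in some other tissues such as kidney. Mice of both genotypes were 58 to 60 days of age, after 4 weeks on feed with 10% protein and 70% carbohydrate. The study concerns what prolonged, low-level exposure to the viral oncoproteins does to hepatic gene expression, and the only contrast is PEPCK-TAg against wild type. Log2 signals over all probe sets correlated at 0.9748 between the wild-type arrays, 0.9767 between the PEPCK-TAg arrays and 0.9429 to 0.9539 between arrays of different groups. Whether WT-1 and WT-2, or TAg-1 and TAg-2, were separate animals is not stated, so each p-value measures array-to-array spread alone, and that spread may be technical. The parent strains B6 and SJL carry different haplotypes of the H2 complex, and the labels do not give the haplotype of any animal. Whether allele differences under the probes moved any signal was not tested.

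Class I molecules, a heavy chain such as H2-K1 or H2-D1 bound to B2m, show peptides from inside the cell to cytotoxic T cells and are made by nearly all nucleated cells, hepatocytes among them. Their peptides are cut by proteasomes, in which the interferon-inducible subunits encoded by Psmb8, Psmb9 and Psmb10 can replace the constitutive catalytic subunits of Psmb5, Psmb6 and Psmb7, and are carried into the endoplasmic reticulum by the transporter of Tap1 and Tap2. Class II molecules, pairs such as H2-Aa with H2-Ab1, show peptides from endocytosed proteins to helper T cells. They travel with the invariant chain Cd74, and in liver they are made mainly by macrophages, dendritic cells and B cells.

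The RefSeq promoter table of build GRCm38.p6 held 8 of the 10 genes, and H2-Ab1 and Cd74 had no entry. The stretches printed here are those that several results share, namely the short gap between the starts of Psmb9 and Tap1, the upstream bases of both class I heavy chain genes, and those of a class II gene. Capitals mark matches, on either strand, to an ISRE-like motif (GAAA on both sides of any 2 bases), a GAS-like motif TTCNNNGAA, an NF-kB-like motif GGGNNTTCC or a Y-box-like motif GATTGG. Psmb9 and Tap1 lie head to head, with 225 bases between their listed starts at chr17:34187331-34187555 (plus strand, Tap1 to the right). The other stretches are the 250 bases before the listed start, at chr17:34000348-34000597 (minus strand) for H2-K1, chr17:35262844-35263093 (plus strand) for H2-D1 and chr17:34287824-34288073 (minus strand) for H2-Aa.
Psmb9 to Tap1: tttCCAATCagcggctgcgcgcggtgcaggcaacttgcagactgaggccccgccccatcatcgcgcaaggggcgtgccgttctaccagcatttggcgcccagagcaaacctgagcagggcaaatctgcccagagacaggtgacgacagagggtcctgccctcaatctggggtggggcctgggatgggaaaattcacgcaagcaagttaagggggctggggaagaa
H2-K1: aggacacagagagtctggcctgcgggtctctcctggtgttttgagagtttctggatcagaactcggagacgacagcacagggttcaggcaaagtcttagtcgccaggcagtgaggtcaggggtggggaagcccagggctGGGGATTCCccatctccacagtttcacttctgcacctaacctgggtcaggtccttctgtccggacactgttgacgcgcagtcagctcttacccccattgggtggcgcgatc
H2-D1: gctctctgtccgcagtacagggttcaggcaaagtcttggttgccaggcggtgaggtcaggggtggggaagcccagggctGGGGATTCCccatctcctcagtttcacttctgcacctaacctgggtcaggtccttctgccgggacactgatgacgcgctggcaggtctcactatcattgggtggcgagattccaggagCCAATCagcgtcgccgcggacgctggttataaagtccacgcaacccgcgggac
H2-Aa: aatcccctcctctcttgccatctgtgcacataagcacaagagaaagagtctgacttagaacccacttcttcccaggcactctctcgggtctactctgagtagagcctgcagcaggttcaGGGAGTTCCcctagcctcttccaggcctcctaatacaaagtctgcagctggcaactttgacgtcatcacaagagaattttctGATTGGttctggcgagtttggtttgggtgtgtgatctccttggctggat
The gap between Psmb9 and Tap1 held a single match, of the Y-box-like motif beside the Psmb9 start. H2-K1 and H2-D1 shared an identical run of 47 bases that held their NF-kB-like match. Among the 8 members, 6 held the Y-box-like motif in the 250 bases, against 14.6% of all 32851 promoters in the table, and 3 held the NF-kB-like motif, against 4.98%. H2-K1 has a second listed start 14 bases downstream, and with that start its window also held the Y-box-like motif, which makes 7 of 8. Tap1 and Psmb9 are both counted for 1 and the same match, the one in the gap between them. The ISRE-like motif was found in 1 member, B2m, against 2.98% of promoters, and the GAS-like motif in 1, Psmb8, against 7.02%. A match describes letters only and is not evidence of binding. These patterns are strict, so a missing match is not evidence that a related element is absent.

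Of the 15 member probe sets 5 were called higher in PEPCK-TAg and 0 lower, where 6.4% of all 7453 tested probe sets (477) were called higher and 3.07% (229) lower. The 5 belonged to Psmb8, Psmb9, Tap1, H2-K1 and H2-D1, all of the class I pathway. The immunoproteasome subunits had the smallest p-values among the members. Psmb8 and Psmb9, catalytic subunits of the immunoproteasome, were both higher in PEPCK-TAg liver, while their constitutive counterparts did not pass the test. The deposited unit is the MAS5 signal, a summary of probe brightness scaled to the same trimmed mean of 250.2 on every array. Psmb9 measured 257.1 on WT-1, 213.5 on WT-2, 836.1 on TAg-1 and 861 on TAg-2; pairs of values further on follow this order of replicates. Both PEPCK-TAg arrays lay far above both wild-type arrays, and the replicates of PEPCK-TAg nearly coincided. The mean signal of Psmb9 rose 3.61-fold, from 235 ± 30.8 to 849 ± 17.6 (SD, n = 2 each), a log2 change of 1.80 ± 0.17 (SE; limma, Benjamini-Hochberg adjusted p = 0.00238). Log2 changes here are PEPCK-TAg minus wild type of log2(signal + 13), a scale that understates the change of dim genes, and a probe set is called at an adjusted p under 0.05 over all probe sets tested. Psmb8 measured 649.2 and 578.5 in wild type, against 1572.9 and 1484.4 in PEPCK-TAg. Its groups were again apart, with a rise of 2.49-fold and a log2 change of 1.30 ± 0.15 (limma, adjusted p = 0.00548). Both genes passed in each of 13 alternative analyses, with log2 changes of 1.66 to 1.93 for Psmb9 and 1.16 to 1.38 for Psmb8.

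**Figure D1:**
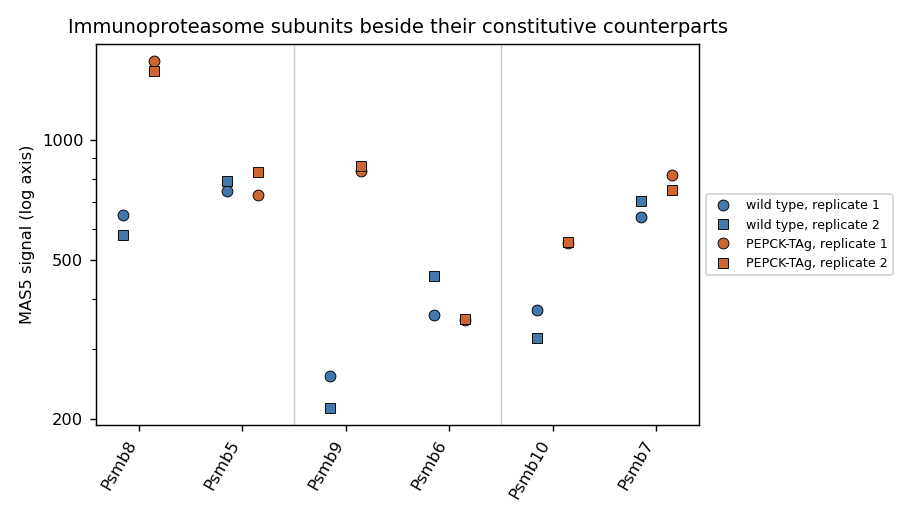
MAS5 signal (log axis) of 3 immunoproteasome subunits and, to the right of each, the constitutive subunit it replaces; each point is 1 array, blue for wild type and orange for PEPCK-TAg. Psmb8, Psmb9 and Psmb10 stood higher on both PEPCK-TAg arrays, and by less so did Psmb7, whereas Psmb5 overlapped between the groups and Psmb6 was lower. Only Psmb8 and Psmb9 were called. Heights of different genes are not comparable.

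Psmb10, the other inducible catalytic subunit, measured 374.5 and 319.1 in wild type, against 550.8 and 556.2 in PEPCK-TAg. Its groups did not overlap, but its log2 change of 0.66 ± 0.17 did not pass (limma, adjusted p = 0.058). Psme1, a subunit of the PA28 activator that interferon gamma induces, rose from 687 ± 104 to 1293.4 ± 79.5, by 0.91 ± 0.17 in log2 (limma, adjusted p = 0.0238). Its call was lost without WT-1 (0.75, adjusted p = 0.0762), TAg-1 (0.84, adjusted p = 0.0829) or TAg-2 (0.97, adjusted p = 0.0522). A second, dimmer Psme1 probe set below the filter measured 48.8 and 20.2 in wild type, against 20.9 and 26 in PEPCK-TAg, with overlapping groups. The assembly factor Pomp changed by 0.02 ± 0.31 (limma, adjusted p = 0.977), so that 1 of 3 tested genes of this short list rose. With each gene read by its brightest probe set, 6.83% of all 5650 tested genes were called higher.
The constitutive subunits are given side by side with the inducible ones because each pair occupies the same place in the proteasome. Psmb5, the counterpart of Psmb8, measured 747 and 789.5 in wild type, against 729.9 and 831.7 in PEPCK-TAg (log2 change 0.02 ± 0.16). Psmb6, the counterpart of Psmb9, measured 365.4 and 458 in wild type, against 353.7 and 356.7 in PEPCK-TAg (-0.20 ± 0.18). Psmb7, the counterpart of Psmb10, measured 642.5 and 703.5 in wild type, against 816.5 and 749.7 in PEPCK-TAg (0.21 ± 0.16). Its probe set has the suffix f, which marks probes shared within a sequence family. None of the 3 passed (limma, adjusted p of 0.951, 0.545 and 0.442), also at an unadjusted p under 0.05, where the count was 0. The sign of the small Psmb5 value turned under some scalings, to -0.12 with median centring. A dimmer Psmb5 probe set was lower without overlap, at 131.3 and 103.7 in wild type, against 102.1 and 86.8 in PEPCK-TAg. It did not pass either (-0.28 ± 0.22, limma, adjusted p = 0.487). The difference between the inducible and constitutive changes was not tested.

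Peptide transport and loading genes were higher in part. Tap1, a subunit of the peptide transporter, has 2 probe sets, and they disagreed. Probe set 103035_at measured 361.2 and 330.4 in wild type, against 628.3 and 559.8 in PEPCK-TAg, with both PEPCK-TAg arrays higher. Its log2 change was 0.76 ± 0.16, or 1.72-fold (limma, adjusted p = 0.0366). That call was not kept when any 1 array was left out, with an adjusted p of 0.0748 without WT-1, 0.0964 without WT-2, 0.155 without TAg-1 and 0.0852 without TAg-2, and passed in 5 of 13 alternatives. The dim probe set 162278_r_at, whose suffix r marks relaxed probe selection, measured 81.8 and 51.6 in wild type, against 39.2 and 56.4 in PEPCK-TAg. Its groups overlapped, with a log2 change of -0.38 ± 0.32 (limma, adjusted p = 0.514).
Tap1 and Psmb9, whose starts face each other across the 225 bases shown above, thus both had a called probe set, with log2 changes of 0.76 and 1.80. Tap2, the partner of Tap1, measured 118.1 and 110.3 in wild type, against 282.1 and 317.8 in PEPCK-TAg. It rose 2.63-fold, by 1.30 ± 0.18 in log2 (limma, adjusted p = 0.00842), and passed in all 13 alternatives. Tapbp, which encodes tapasin and bridges the transporter to class I molecules, rose from 758 ± 116 to 1571 ± 209 in its brightest probe set, by 1.04 ± 0.18 (limma, adjusted p = 0.0193). The other Tapbp probe sets changed by 0.30 and 0.33 without passing, and the call was lost without WT-1 (adjusted p = 0.063) or TAg-2 (adjusted p = 0.0642).

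The heavy chain genes split by probe set rather than by gene. H2-K1 and H2-D1 had 3 probe sets each, and 5 of these 6 carry the suffix f, which marks probes shared within a sequence family, so they can hold signal of other class I genes. The probe set of H2-K1 with the plain suffix, 97700_at, measured 427.5 and 423.9 in wild type, against 1034.3 and 2237.9 in PEPCK-TAg. The wild-type arrays nearly coincided, and the PEPCK-TAg arrays, both higher, differed by 1.10 on the log2 scale, where 95% of tested probe sets differed by at most 0.81. Its log2 change was 1.81 ± 0.34 (limma, adjusted p = 0.0231), and the call was lost without WT-1 (adjusted p = 0.0709) or WT-2 (adjusted p = 0.0657). Probe set 97125_f_at of H2-K1 measured 1129.7 and 1224 in wild type, against 1745.8 and 1702.9 in PEPCK-TAg. Its groups were apart, and its change of 0.55 ± 0.14 missed the threshold (limma, adjusted p = 0.0642), though it passed with quantile normalization (adjusted p = 0.0362) and cyclic loess (adjusted p = 0.0387). The brightest probe set of H2-K1, 93120_f_at, measured 9033.7 and 7416.7 in wild type, against 8451.3 and 7758.6 in PEPCK-TAg, with overlapping groups and a change of -0.02 ± 0.14.
For H2-D1, probe set 97541_f_at measured 1500.1 and 1930.4 in wild type, against 3429.3 and 4258.2 in PEPCK-TAg. Both PEPCK-TAg arrays were higher, the mean rose 2.24-fold, and the log2 change of 1.16 ± 0.19 passed (limma, adjusted p = 0.015) here and in all 13 alternatives. Probe set 101886_f_at measured 3983.7 and 3959.7 in wild type, against 4977.2 and 4082.9 in PEPCK-TAg, a change of 0.18 ± 0.15 (limma, adjusted p = 0.494). Probe set 97540_f_at measured 7915 and 7003.7 in wild type, against 7296.1 and 6441 in PEPCK-TAg, with overlapping groups and a change of -0.12 ± 0.14 (limma, adjusted p = 0.646). B2m, the light chain of every class I molecule, measured 7762.5 and 6842 in wild type, against 6791.7 and 6159.2 in PEPCK-TAg. Its PEPCK-TAg arrays lay just below the wild-type arrays, and its change of -0.17 ± 0.13 did not pass (limma, adjusted p = 0.479).

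**Figure D2:**
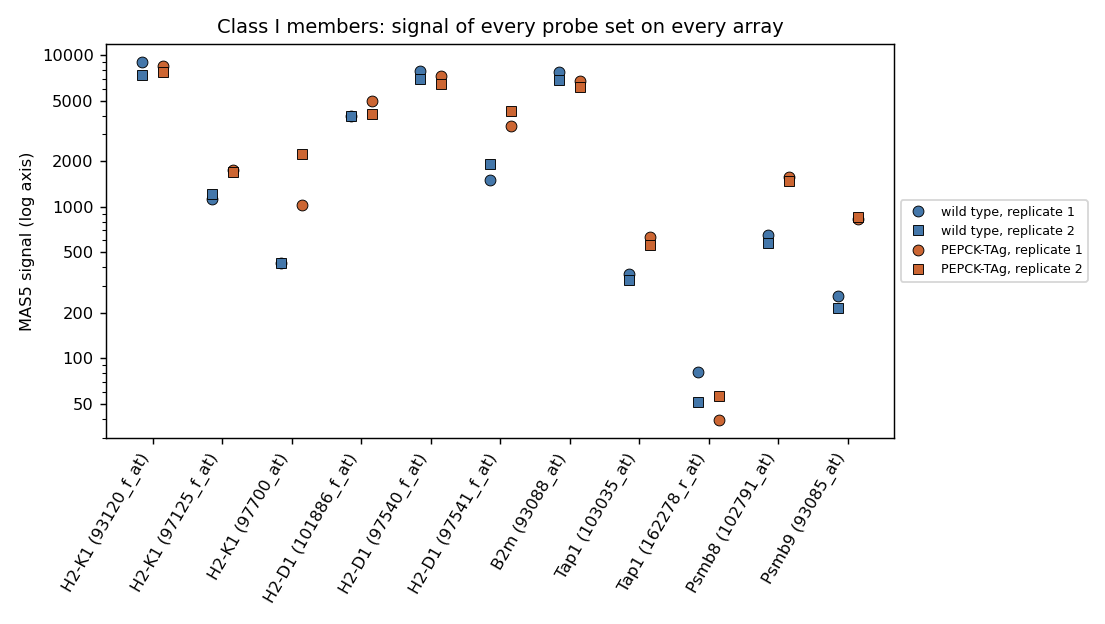
MAS5 signal (log axis) of the 11 class I probe sets; each point is 1 array, blue for wild type, orange for PEPCK-TAg, circles for replicate 1 and squares for replicate 2. The 4 brightest probe sets showed little separation of the groups, while those of Psmb8, Psmb9, Tap1 (103035_at), H2-K1 (97700_at) and H2-D1 (97541_f_at) stood higher on both PEPCK-TAg arrays.

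The 4 brightest class I probe sets, those of B2m, H2-K1 (93120_f_at) and H2-D1 (101886_f_at and 97540_f_at), all had a mean signal over 3000 and none was called. Bright probe sets as a whole were lower in PEPCK-TAg, with a median log2 change of -0.31 over the 258 tested probe sets of that brightness, against 0.01 over all tested. Of these 258, 3.1% were called higher and 14% lower. The cut at 3000 was chosen after the values were seen. With quantile normalization, which brought the bright median to -0.01, the changes were 0.28 for H2-K1 93120_f_at, 0.17 for H2-D1 97540_f_at and 0.12 for B2m, so the direction of these probe sets depended on the scaling. H2-D1 101886_f_at was higher either way, at 0.18 and, with quantile normalization, 0.47 (limma, adjusted p = 0.0642). None of the 4 passed either way.

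**Figure D3:**
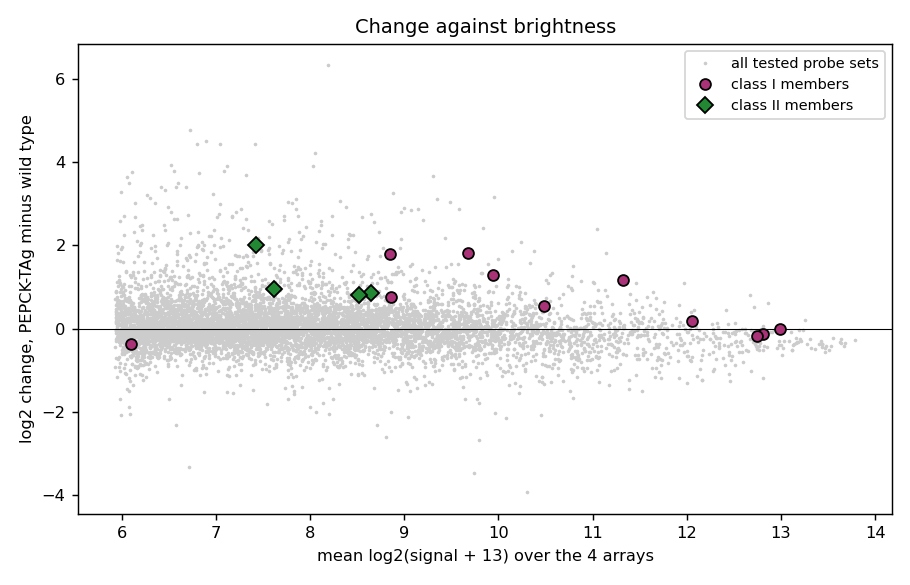
Log2 change (PEPCK-TAg minus wild type) against the mean log2 signal over the 4 arrays; grey points are all 7453 tested probe sets, circles the 11 class I and diamonds the 4 class II probe sets. The 4 class I probe sets farthest right, between -0.17 and 0.18, lay above -0.31, the median of the tested probe sets with a mean signal over 3000.

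Other class I genes changed in both directions. Of 36 further genes of class I structure or loading fixed as a list, 21 were on the array under a symbol of their own and 15 were tested. Tap2 and Tapbp rose, H2-Q10 fell and 12 did not pass, with a list median of 0.05. Among all 5650 tested genes 6.83% were called higher and 3.01% lower. H2-Q10, a class I gene whose secreted product is made mainly by liver, measured 10907.2 and 10211.5 in wild type, against 7306.4 and 7508.9 in PEPCK-TAg. Its fall of -0.51 ± 0.12 (limma, adjusted p = 0.0459), read by a probe set whose suffix s marks probes shared between transcripts, is among the bright signals described above. The H2-Q10 change was -0.22 with quantile normalization (adjusted p = 0.217) and -0.19 with cyclic loess (adjusted p = 0.308). It was called in none of the fits without 1 array, where the adjusted p was 0.137 without WT-1, 0.0786 without WT-2, 0.228 without TAg-1 and 0.212 without TAg-2. Pdia3, a chaperone of the loading complex, measured 535.1 and 219.5 in wild type, against 1310 and 665.3 in PEPCK-TAg, a change that missed the threshold (1.41 ± 0.46; limma, adjusted p = 0.111). Cd1d1, which presents lipids to natural killer T cells, measured 3149.8 and 2999.2 in wild type, against 2693.2 and 2742.1 in PEPCK-TAg (-0.18 ± 0.13; limma, adjusted p = 0.454).

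All 4 class II members had higher mean signals in PEPCK-TAg, by 1.68-fold to 3.11-fold, but none passed the threshold. H2-Ab1, the beta chain of the I-A molecule, measured 108.4 and 149.7 in wild type, against 218.3 and 311.6 in PEPCK-TAg. Its groups were apart, with a log2 change of 0.96 ± 0.24 (limma, adjusted p = 0.0586). H2-Eb1, the beta chain of the I-E molecule, measured 275.9 and 296 in wild type, against 409.6 and 671.1 in PEPCK-TAg. It too had groups apart and a change of 0.85 ± 0.25 (limma, adjusted p = 0.0851). H2-Aa, the alpha chain of I-A, measured 21.3 and 200 in wild type, against 251 and 438.2 in PEPCK-TAg. WT-1 was very low for H2-Aa, and the wild-type replicates differed by 2.63 in log2, where 95% of tested probe sets differed by at most 0.86. The change of H2-Aa was 2.01 ± 0.77 with all arrays (limma, adjusted p = 0.16), 0.70 without WT-1 and 3.33 without WT-2, where it passed (adjusted p = 0.00719). Cd74, the invariant chain, measured 171.9 and 406.1 in wild type, against 371.6 and 600 in PEPCK-TAg. Its groups overlapped, and its change of 0.80 ± 0.41 (limma, adjusted p = 0.267) was 0.21 without WT-1 and 1.39 without WT-2. Without TAg-1, H2-Ab1 (1.21, adjusted p = 0.0441) and H2-Eb1 (1.20, adjusted p = 0.0228) passed.
WT-1 was lower than WT-2, and TAg-1 lower than TAg-2, for each of the 4 class II genes. In bulk liver RNA, more cells of a type and more RNA of a gene per cell cannot be told apart.

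**Figure D4:**
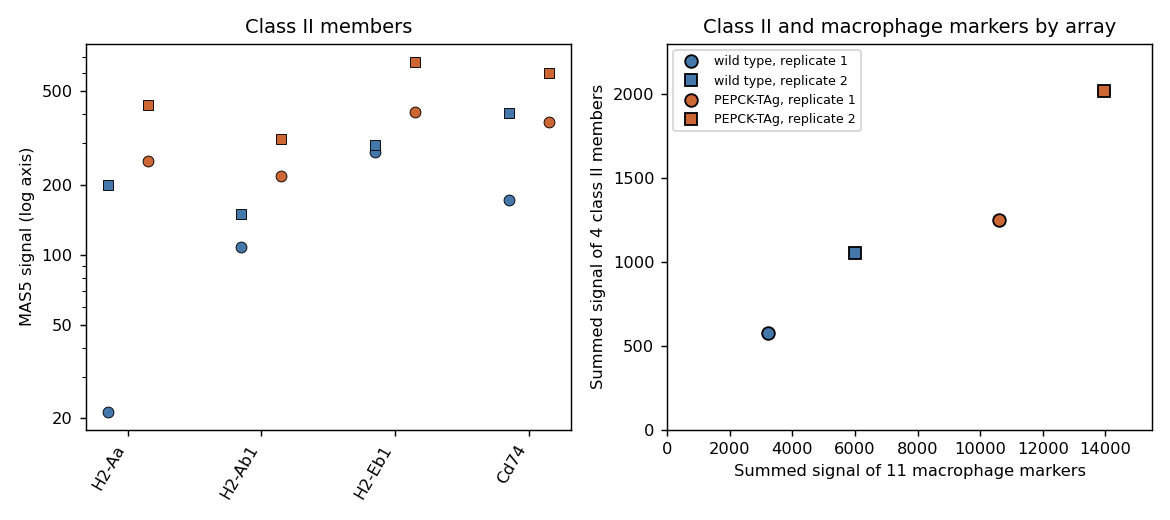
Left, MAS5 signal (log axis) of the 4 class II members, 1 point per array; right, the summed signal of the 4 class II members against that of 11 macrophage markers on each array. WT-1 was lowest and TAg-2 highest on both sums.

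Among 15 other genes of class II loading, processing and control, 13 were on the array, 9 were tested and 3 rose, with a list median of 0.33. The share called higher among all 5650 tested genes was 6.83%. H2-DMa, a chain of the molecule that loads peptides onto class II, measured 60.4 and 81.6 in wild type, against 253.6 and 278.1 in PEPCK-TAg. It rose 3.74-fold, by 1.74 ± 0.21 in log2 (limma, adjusted p = 0.00573), and passed in all 13 alternatives, while a dimmer H2-DMa probe set below the filter gave overlapping groups. Ctss, the protease cathepsin S that trims the invariant chain, measured 775 and 1394.4 in wild type, against 2526.2 and 3539.7 in PEPCK-TAg (1.51 ± 0.30; limma, adjusted p = 0.0277). Lgmn, the lysosomal protease legumain, measured 305.6 and 493.1 in wild type, against 786 and 982.6 in PEPCK-TAg (1.15 ± 0.25; limma, adjusted p = 0.0383). Neither Ctss nor Lgmn passed without WT-1 (1.09, adjusted p = 0.0592, and 0.82, adjusted p = 0.0921) or without TAg-2 (1.27, adjusted p = 0.0541, and 0.99, adjusted p = 0.1), which left 1 gene of the list called.
H2-DMb1, the partner of H2-DMa, measured 63.2 and 96.9 in wild type, against 106.4 and 204 in PEPCK-TAg, a change that missed the threshold (limma, adjusted p = 0.187). Ciita, the master activator of class II transcription, measured 76.7 and 89.9 in wild type, against 86 and 61.7 in PEPCK-TAg. Its groups overlapped, with a change of -0.16 ± 0.25 (limma, adjusted p = 0.749) that was 0.04 without TAg-2. H2-Ea, the alpha chain of I-E, which the haplotypes of both parent strains do not express, stayed below the brightness filter, with 4.7 and 11.2 in wild type, against 23.9 and 22.1 in PEPCK-TAg.

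Set side by side, class I members had 5 of 11 probe sets called higher and class II members 0 of 4, and neither had one called lower. With each array centred on its median, the median change over all tested probe sets became -0.14, the split of calls over all became 403 higher and 409 lower instead of 477 and 229, and class I had 4 calls. The class I count was 3 without WT-1 or WT-2, and the class II count was 1 without WT-2 and 2 without TAg-1. Groups did not overlap and PEPCK-TAg was higher in 7 of 11 class I and 3 of 4 class II probe sets, against 30.2% of all tested, and PEPCK-TAg was lower without overlap in 1 class I probe set, that of B2m, against 26.3%. At an unadjusted p under 0.05 the counts were 6 of 11 and 3 of 4, against 26.6% of all tested probe sets. The median log2 change, however, was larger for class II, 0.91, than for class I, 0.55, beside 0.01 over all tested probe sets. Restricted to plain-suffix probe sets, 5 in class I and 4 in class II, the medians were 1.30 and 0.91, so the order of the classes turned with the choice of probe sets. The median of class I minus that of class II was 2.93 on WT-1, 2.27 on WT-2, 2.46 on TAg-1 and 2.10 on TAg-2, in log2 signal. These per-array differences overlapped between the groups, and no difference between the classes is shown by them. An exact permutation test of 2 arrays against 2 cannot give a two-sided p below 0.333, so none was run.

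**Figure D5:**
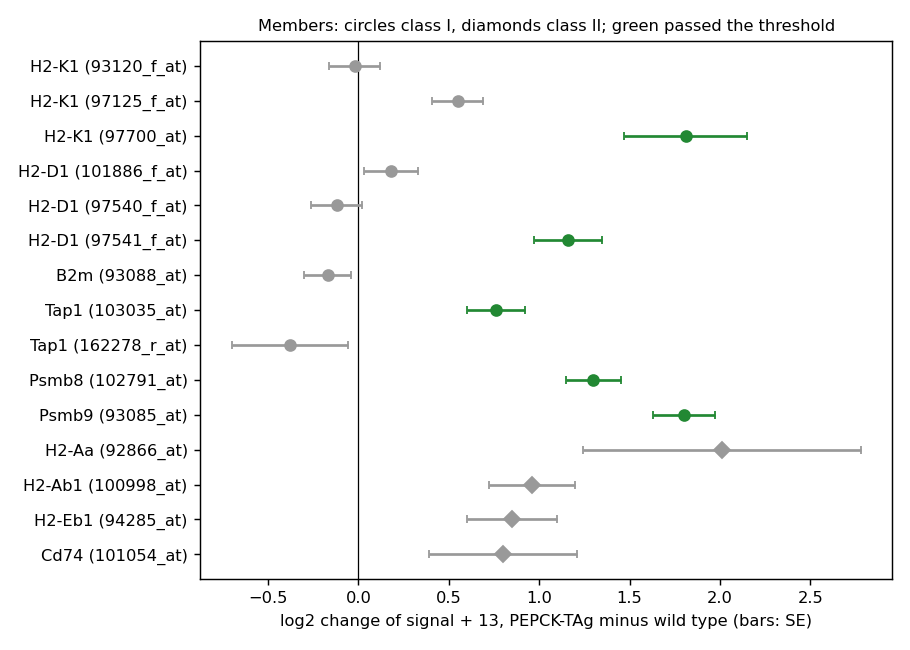
Log2 change of each member probe set with its SE from limma; circles are class I, diamonds class II, and green marks an adjusted p under 0.05. Class I ranged from -0.38 to 1.81 with 5 calls, and class II from 0.80 to 2.01 with no call. The errors were widest for H2-Aa (0.77) and Cd74 (0.41). Those of H2-Ab1 (0.24) and H2-Eb1 (0.25) were smaller than that of the called H2-K1 97700_at (0.34).

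Genes of interferon gamma signalling, the main known inducer of both pathways, were examined from a list of 19, of which 16 were on the array and 14 tested. Of these 8 rose and 0 fell, and the median was 0.87, where 6.83% of all 5650 tested genes were called higher and 3.01% lower when each gene was read by its brightest probe set. At an unadjusted p under 0.05 the count was 11 of 14, against 28.0% of all tested genes. Cxcl10, a chemokine that attracts T cells, measured 8.8 and 6.2 in wild type, against 112.6 and 304.4 in PEPCK-TAg. Its wild-type mean of 7.5 lay below the lowest mean signal that was tested, 48.1, so it passed the filter through its PEPCK-TAg arrays, and apart from it 7 of 13 genes rose. The count of 11 and the median of 0.87 still include Cxcl10. They also include Ifngr2, whose wild-type mean of 47.1 lay just below 48.1. Gbp3 and Gbp2, which encode guanylate-binding proteins, rose by 2.81 ± 0.19 and 1.71 ± 0.34, and the chemokine gene Cxcl9, named after its values were seen, by 1.77 ± 0.36. Gbp3 measured 150.7 and 206.6 in wild type, against 1271.1 and 1357.1 in PEPCK-TAg. Ifngr1, a chain of the interferon gamma receptor, rose by 1.18 ± 0.19 from 106 ± 3.96 to 259 ± 42.1 (limma, adjusted p = 0.0157), and the transcription factor gene Irf8 by 1.11 ± 0.17 (limma, adjusted p = 0.0138). Without TAg-2 neither passed (adjusted p = 0.0751 and 0.0564), and the list count was then 1. The count was 4 without WT-1 and 5 without WT-2 or TAg-1. Igtp, which encodes an interferon gamma-induced GTPase, rose by 0.89 ± 0.15 with all arrays (limma, adjusted p = 0.0182), and missed the threshold without WT-1 (adjusted p = 0.0592), TAg-1 (adjusted p = 0.0522) or TAg-2 (adjusted p = 0.07). The transcription factor gene Irf9 rose by 0.69 ± 0.16 (limma, adjusted p = 0.0462). Iigp1, the brightest gene of the list, measured 3693.3 and 3858.5 in wild type, against 3974.3 and 3921.5 in PEPCK-TAg. Its change of 0.06 ± 0.13 did not pass (limma, adjusted p = 0.801). Irf1, a transcription factor that acts on class I and immunoproteasome genes, measured 308.7 and 291.4 in wild type, against 322 and 481.1 in PEPCK-TAg. That change missed the threshold (0.38 ± 0.22, limma, adjusted p = 0.335). Ifng itself lay below the filter, at 3.5 and 5.5 in wild type, against 3.5 and 2.6 in PEPCK-TAg. Which interferon, if any, moved the genes of this list was not tested. Nlrc5 was not analysed here.

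Markers of the cells that carry class II moved with these genes in part. The summed signal of 11 tested macrophage or Kupffer cell markers was 3224.4 on WT-1, 5999.2 on WT-2, 10607.7 on TAg-1 and 13942.7 on TAg-2. The summed class II signal had the same order, 577.5, 1051.8, 1250.5 and 2020.9. Single markers did not all keep this order. WT-2 lay above TAg-1 for Lyz2, Adgre1, Csf1r (848 against 643.3) and Marco (144 against 25.3), as it did for Cd74 among the class II members. The higher macrophage sum on TAg-1 than on WT-2 came from the other 7 markers, with Mpeg1 the largest part of it. Of the 11 markers 4 rose, Mpeg1, Clec4f, Cd5l and C1qb, with a list median of 1.15 (7 at an unadjusted p under 0.05). Dimmer probe sets of these markers did not show a rise. A tested one of C1qb overlapped between the groups (0.21 ± 0.23, limma, adjusted p = 0.617). A tested one of Csf1r was lower without overlap, at 97.9 and 76.1 in wild type, against 52.7 and 28.6 in PEPCK-TAg (-0.93 ± 0.32, limma, adjusted p = 0.131). Those of Mpeg1, Lyz2, Cd68 and Adgre1 lay below the filter and overlapped. Mpeg1, which encodes the pore-forming perforin-2 of macrophages, measured 348.8 and 294.2 in wild type, against 3143.9 and 2776 in PEPCK-TAg. Clec4f, a lectin of Kupffer cells, measured 738.4 and 1208.7 in wild type, against 1971.9 and 2953.4 in PEPCK-TAg. Lyz2, lysozyme of macrophages, measured 142.3 and 604.7 in wild type, against 523 and 1213 in PEPCK-TAg, and Adgre1, the F4/80 antigen, 91.4 and 186.2 in wild type, against 115 and 261.3 in PEPCK-TAg. Both had the pattern of Cd74, with overlapping groups and replicate 1 the lower one in each group. Leaving out WT-1 gave 2 macrophage calls, leaving out WT-2 gave 8 and leaving out TAg-2 gave 1. The part of macrophage number or content in the class II values was not tested.
Of 8 dendritic cell markers 4 were tested and 1 rose, Cd83, a surface protein of mature dendritic cells and some other activated cells, from 11.7 and 26.3 to 112.3 and 221.2 (limma, adjusted p = 0.0154), while the other 3 did not pass and a second Cd83 probe set below the filter overlapped between groups. The wild-type mean of Cd83, 19, was also below 48.1, so that it too was tested through its PEPCK-TAg arrays. Below the filter, both Cd86 probe sets were higher without overlap. They measured 4.8 and 6.5 against 29.9 and 18.8, and 17.1 and 23.1 against 29.4 and 37.9. Ccr7 was also higher, at 4 and 4.9 in wild type, against 18.4 and 6.3 in PEPCK-TAg, while Zbtb46 overlapped. None of these was bright enough to be tested. The summed signal of the 4 tested dendritic cell markers was 418.2 to 502.7 in wild type and 499.6 to 627 in PEPCK-TAg, and their median was 0.04. Of 5 tested B or plasma cell markers 0 passed (2 at an unadjusted p under 0.05), with summed signals of 472 to 479 in wild type and 416.6 to 662.5 in PEPCK-TAg. Of 9 T or natural killer cell markers on the array only Cd4 passed the filter, at 67.5 and 91.4 in wild type, against 73.8 and 76.4 in PEPCK-TAg. Cd3e, which defines T cells, measured 19.1 and 20.5 in wild type, against 19.7 and 21.3 in PEPCK-TAg, and Cd8a stayed at or under 6.4 on all arrays. Cd8b1, at 3.9 and 4.1 in wild type, against 10.7 and 10.2 in PEPCK-TAg, was higher without overlap. So was Klrd1, at 18.2 and 27.8 in wild type, against 30.4 and 45.2 in PEPCK-TAg. The other markers of this list below the filter overlapped between the groups, and all of these signals were too dim to be tested. The liver label held, with albumin (Alb) among the brightest signals, at 16722.8 and 14429.7 in wild type, against 13339.3 and 12445.7 in PEPCK-TAg. Of 7 hepatocyte markers 0 passed (3 at an unadjusted p under 0.05), and their median was -0.43. Of 6 endothelial markers 0 passed (2 unadjusted), of 2 tested stellate cell markers 1 rose, and no bile duct marker of the list reached the filter. From 6 neutrophil markers on the array 2 were tested and 0 passed (1 unadjusted), while 4 lay below the filter. Among these 4, S100a8 measured 20 and 16.6 in wild type, against 105.2 and 89.9 in PEPCK-TAg. S100a9 measured 12.6 and 26.3, against 78 and 85.8. Ly6g overlapped between the groups, and the 2 probe sets of Mpo went opposite ways. Over all 5650 tested genes 6.83% were called higher, 3.01% lower and 28.0% had an unadjusted p under 0.05.

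The profiles over the 4 arrays that came closest to the members were sought among 6579 tested probe sets with 1 symbol outside the lists, by the root mean square distance between centred log2 values. Nearest to the mean class II profile were Vnn3, Cfp and Fubp1, at distances of 0.03, 0.064 and 0.085. Cfp, which encodes the complement factor properdin made by leukocytes, measured 103.5 and 216.5 in wild type, against 260.8 and 408.8 in PEPCK-TAg. Nearest to the mean class I profile were Prune1, Chd4 and Tmem229b, at distances of 0.005, 0.015 and 0.015, whereas the class I members themselves lay 0.10 to 0.69 from their mean. With 4 arrays, many probe sets can come this close, and nothing about shared control is read from it.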

How the data were processed

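Total liver RNA was measured on 2 wild-type and 2 PEPCK-TAg U74Av2 arrays, and groups and replicate numbers came from the sample titles. The deposited signal is MAS5 output on a linear scale, per the submitters' processing notes. Which software version, target intensity or detection calls were used is not given in the sources used here. With 2% of probe sets trimmed at either end, each array's mean signal was 250.2, so no further normalization was applied. The instrument records give all arrays one chip lot and fluidics station and each array its own module, so no batch could be tested.

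Of 12488 probe sets, 66 controls were left out. The platform annotation gave 1 symbol to 10833 of the rest, several to 396 and none to 1193, and 10817 symbols matched RefSeq by gene identifier. Signals became log2(signal + 13), probe sets with a mean log2 below the 40th percentile were dropped, and 7453 were fitted with limma 3.58.1 (R 4.3.3, eBayes with trend), two-sided, with Benjamini-Hochberg adjustment over all 7453. Residual degrees of freedom were 2, prior degrees of freedom 4.61, and the number of arrays limits the precision. The fit was run on simulated data with independent noise of the spread it had estimated. Such data cannot show deviations shared between arrays or shifts that follow brightness. Lists read 1 probe set a gene, the brightest.

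Members and lists were chosen with earlier results of these data known. Named were all members, list genes past the threshold (up to 6 of smallest p) and a few fixed regulators and controls. Pdia3, Cd1d1, Pomp, H2-DMb1, Irf9 and Iigp1 and the single markers outside that rule were chosen after their values were seen. Alternatives changed the offset, filter, normalization, trend and replicate block, and left out each array.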

Additional observations from a re-analysis of the deposited data

How the results depend on the processing

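Psmb8, Psmb9, H2-D1 97541_f_at, Tap2, H2-DMa and Gbp3 kept their direction and their call in all 13 alternatives. Of 194 comparisons of member probe sets with an alternative, 165 kept direction and side of the threshold, 11 lost a call, 10 gained one and 8 changed sign. The changes of sign were in probe sets that never passed: H2-K1 93120_f_at (0.28 with quantile normalization, 0.30 with cyclic loess, 0.13 without WT-1, 0.05 without TAg-2, and -0.16 to 0.13 over the fits that left out 1 array), H2-D1 97540_f_at (0.17 and 0.18 with quantile normalization and cyclic loess) and B2m (0.12 and 0.12). Psmb5 turned to 0 with quantile normalization, -0.12 with median centring, -0.02 without WT-1 and -0.07 without TAg-2 (-0.07 to 0.11 over the fits without 1 array), and Ciita to 0.04 without TAg-2. The class I minus class II difference of medians was -0.36, and 0.39 with plain-suffix probe sets only. Without the filter, class I had 3 calls, interferon gamma genes 5, other class II genes 1 and all probe sets 105 lower. Without the trend, all probe sets had 117 lower, the other immunoproteasome genes 0 calls and the other class II genes 1, and median centring gave 409 lower. Leaving out 1 array gave 288 to 420 higher and 110 to 143 lower probe sets, 3 to 4 class I, 0 to 2 class II, 0 to 1 other immunoproteasome, 1 to 3 other class II and 1 to 5 interferon gamma calls, with the lone array left in a group assumed to vary like the other group. With replicate number as a block, 4 of 4 class II members passed, 2 other immunoproteasome genes passed and 444 probe sets were lower and 696 higher. Across probe sets, same-numbered arrays deviated together with a correlation of 0.181, and no label ties a number to a shared animal or day, so the number is not taken as a pairing. The cause of these shifts was not tested. With 2 arrays a group, signals near the filter limit are the least precise.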

Other observations

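The annotation gave 3 further probe sets the symbol of H2-K1 or H2-D1 together with those of other class I genes, and they were left out of the counts. One of them, shared by H2-K1 with H2-Q7, H2-Q9 and H2-Q10, measured 41.6 and 45.5 in wild type, against 124 and 180.3 in PEPCK-TAg, a log2 change of 1.53 ± 0.26 (limma, Benjamini-Hochberg adjusted p = 0.0174). Another, with 10 symbols, measured 3487.1 and 3627.7 in wild type, against 3769.4 and 3252 in PEPCK-TAg, with overlapping groups. The third, with 5 symbols, lay below the brightness filter, at 34.3 and 36.2 in wild type, against 25 and 13.1 in PEPCK-TAg.

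Ifi30, a lysosomal thiol reductase that helps unfold antigens for class II loading, lay below the filter and so was not tested. It measured 11 and 47 in wild type, against 61.3 and 115 in PEPCK-TAg, the same order of arrays as H2-Aa.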
